A study of Homo sapiens with 18 samples.

Results

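The subunits of the oxidative phosphorylation machinery, encoded partly by mitochondrial DNA and partly by nuclear genes, were followed in 2 human lung cancer cell lines after knockdown of YAP or TAZ. Members were taken by gene symbol, from the series of names used for subunits of complexes I to V (MT-ND, MT-CO, MT-ATP and MT-CYB; NDUFA, NDUFB, NDUFC, NDUFS and NDUFV; SDHA to SDHD; UQCR; COX4 to COX8; ATP5). This gave 96 of the 22219 gene names found in the 2 count tables, 95 of 18978 in the H1299 table and 95 of 20335 in the A549 table. Of the 96, 13 were mitochondrial subunit genes and 76 were nuclear subunit genes. The remaining 7 carry a matching name without encoding a standard subunit: 5 pseudogenes (ATP5EP2, ATP5F1P5, ATP5G1P4, ATP5HP4 and UQCRFS1P1), the ATP synthase coupling factor gene ATP5S and the UQCRH-like gene UQCRHL. COX7B2 was listed for H1299 only and ATP5F1P5 for A549 only.

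H1299 and A549 are established non-small cell lung cancer lines. Each was transfected for 48 h with 30 nM of a pool of siRNAs against YAP (gene YAP1), against TAZ (gene WWTR1) or with a non-targeting pool, here called siYAP, siTAZ and siControl. All cells spent the last 18 h without serum. Each of the 6 groups had 3 poly(A) RNA libraries, 18 in all. The culture medium was RPMI-1640 for H1299 but DMEM for A549, and each line has a count table of its own, so that line, medium and table cannot be told apart. Nothing in the labels says whether the 3 libraries of a group came from separate cultures.

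Oxidative phosphorylation passes electrons from NADH through complex I, or from succinate through complex II, to complexes III and IV, and complex V uses the proton gradient built on the way to make ATP. Mitochondrial DNA is transcribed as long transcripts that are cut into the single mRNAs, so its genes share their promoters. The nuclear subunit genes are transcribed from separate places on many chromosomes. Complex II, which also serves the citrate cycle, is the complex with no mitochondrially encoded subunit. YAP and TAZ are transcriptional co-activators of the Hippo pathway that reach DNA mainly through TEAD factors.

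The libraries held 16.8 to 20.8 M assigned reads (M, 1e6 reads) in H1299 and 10.7 to 44.98 M in A549. In the H1299 libraries YAP1 levels in CPM (read counts scaled to a common library size of 1e6, with TMM factors) stood at 15.7%, 24.02% and 14.4% of the control mean after siYAP, and WWTR1 at 14.1%, 32.2% and 11.3% after siTAZ. In A549 the values were 29.2%, 26.5% and 33.5% for YAP1 and 40.0%, 28.8% and 29.2% for WWTR1. H1299 replicate 2 kept the most target mRNA in both knockdowns, and pairs that include it differed more in their counts (chi-square per degree of freedom 9.39 to 24.9) than the pairs of replicates 1 and 3 (5.97 to 9.36). In A549 the pairs with replicate 3 differed most (14.3 to 27.5 against 6.35 to 7.89). Of 6 epithelial markers, A549 expressed 6 and H1299 expressed 3 (KRT7, KRT8, KRT18) at 1 CPM or more; EPCAM, CDH1 and KRT19 were below that in H1299. Both lines expressed VIM, CDH2 and ZEB1, and none of 4 immune markers reached 1 CPM. Of 5 lung lineage markers none was counted at that level in H1299 and only NAPSA in A549. COL1A1, of 4 fibroblast markers, was counted in both lines, and CDH5, of 3 endothelial markers, in A549.

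Transcripts of the 13 mitochondrial genes made up a far larger part of the reads than those of all nuclear members together. Their share was 8.20%, 6.90% and 9.97% in the H1299 controls and 11.5%, 11.1% and 11.5% in the A549 controls. The nuclear members together took 0.623% to 0.799% of the reads over the 9 H1299 libraries and 0.565% to 0.666% over the 9 A549 libraries. Between the 2 sets of controls neither share overlaps: H1299 had the lower mitochondrial share and the higher nuclear share (0.716% to 0.771% against 0.579% to 0.659%).

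Per kilobase of transcript, which allows genes to be compared, the median level in controls was 7480 CPM per kb for the mitochondrial genes in H1299 and 7985 in A549, against 65.3 and 55.5 for the nuclear subunit genes. MT-CO2, a catalytic subunit gene of complex IV, stood highest among the mitochondrial genes in both lines, at 12664 ± 2015 CPM per kb in H1299 and 16991 ± 228 in A549 (SD, n = 3). In A549 MT-CO1 and MT-CO3, at 16592 ± 596 and 16285 ± 325, overlapped with it or with each other. The lowest were MT-ND6 and MT-ND5, membrane subunit genes of complex I, at 3428 ± 1035 and 2898 ± 804 in H1299 and 3556 ± 298 and 3010 ± 246 in A549. Of the mitochondrial genes MT-ND6 alone lies on the minus strand, and the strand setting of the counts is not given. How fully poly(A) selection keeps each mitochondrial mRNA was not tested. The most abundant nuclear members were COX6B1, an outer subunit of complex IV, at 663 ± 47.3 CPM per kb in H1299 and 539 ± 39.1 in A549, and ATP5B, the catalytic beta subunit of complex V, at 498 ± 22.1 and 333 ± 23.9. NDUFB9, ATP5J2 and COX7A2 came next in H1299, and COX7B, COX5A and COX7C in A549.

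At the lower end stood subunits made mainly in other tissues. COX7A1, the isoform of heart and skeletal muscle, had 2 to 11 reads per library in H1299 and 0 to 15 in A549, and COX6B2, the testis isoform, had 4 to 8 and 0 to 17. Their widely expressed partners COX7A2 and COX6B1 were among the better expressed members. COX6A2 and COX8C were listed in neither table. COX7B2, an isoform of COX7B, ranged from 22.001 to 26.5 CPM over the H1299 controls and passed no test in either knockdown. The other members at the bottom were NDUFA7 and ATP5S in both lines, UQCRHL in H1299 and NDUFA9 in A549. The annotated lengths used for ATP5S (10212 bases) and NDUFA9 (8363 bases) are far above those of most members, so their low levels per kb are uncertain. NDUFA7 shares 75.9% of its exonic bases with another gene on the same strand, and a counter that drops ambiguous reads lowers such genes. The 11 nuclear subunit genes with more than 30% of such overlap had a median of 32.0 CPM per kb in H1299, against 77.9 for the 61 with none. In A549 the medians were 11.5 for 11 such genes and 68.4 for the 60 with none. Levels of the overlapping genes are uncertain.

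**Figure D1:**
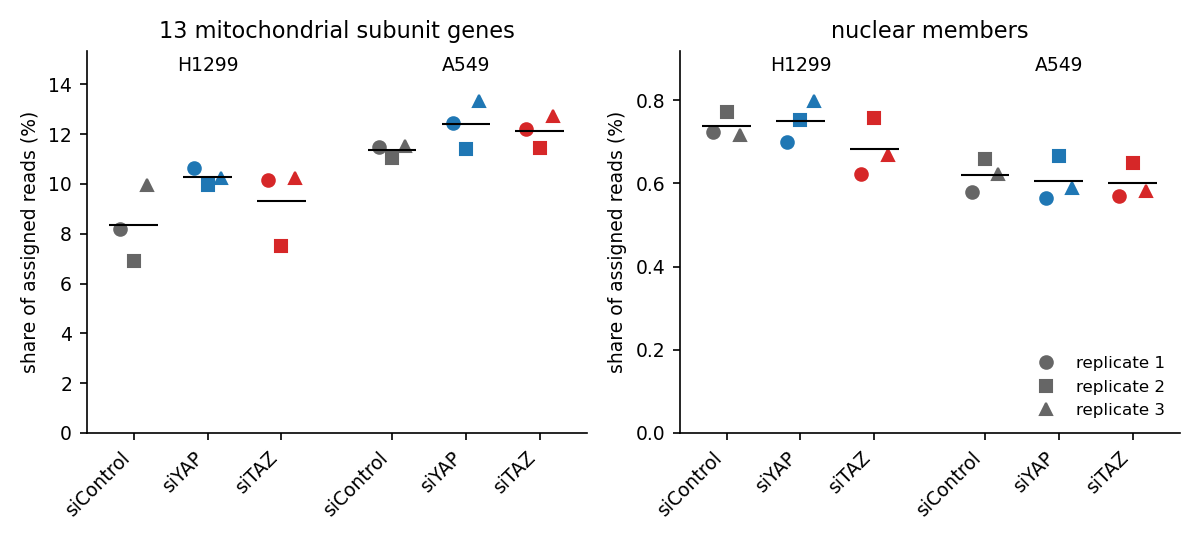
Share of assigned reads (%) taken by the 13 mitochondrial subunit genes (left) and by all nuclear members together (right), 1 point per library, with symbols for the replicate number and a line at the group mean. H1299 siControl libraries spread from 6.90% to 9.97%, and every knockdown library lies above the siControl library of the same number in the left panel.

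The mitochondrial share was higher after either knockdown in each comparison of equally numbered libraries. In H1299 it was 10.6%, 9.96% and 10.2% after siYAP and 10.1%, 7.53% and 10.2% after siTAZ. In A549 it was 12.4%, 11.4% and 13.4% after siYAP and 12.2%, 11.4% and 12.7% after siTAZ. The differences ran from 0.25 to 3.07 percentage points; both knockdowns of a line use the same controls, so these are not independent. The ratio of mitochondrial to nuclear member reads differed from the control by 0.29 on the log2 scale for H1299 siYAP (pooled SD 0.24), 0.27 for H1299 siTAZ (0.36), 0.16 for A549 siYAP (0.18) and 0.14 for A549 siTAZ (0.15). These differences are about as large as the spread between libraries taken without regard to their numbers. Against the control of the same number the ratio was higher in all libraries but 1, with differences of 0.03 to 0.57, and lower in H1299 siYAP replicate 3 (−0.12). A share also depends on all other reads. More mitochondria, more RNA per mitochondrion and less of other RNA cannot be told apart in such shares.

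After siYAP in H1299 the clearest result was a single nuclear gene, SDHD, which encodes a membrane anchor of complex II. Its level was 54.3, 52.6 and 52.1 CPM in the controls, 21.1, 31.8 and 21.3 after siYAP, and 38.7, 47.4 and 40.4 after siTAZ. The 3 groups do not overlap: siYAP is lowest and siTAZ lies in between. SDHD fell by 1.10 ± 0.14 on the log2 scale after siYAP (log2 change ± standard error, edgeR adjusted p = 0.000798), to 0.466 of the control mean. The authors' deposited table gives −1.11 for the same comparison. Leaving out all of replicate 3 gave −1.01 with an adjusted p of 0.061; without replicate 1 or 2 the call held, at 0.0360 and 9.9e-07. After siTAZ the fitted difference was −0.33 (adjusted p = 0.0973), and it passed with the replicate number as a block (0.0186). Directly against siTAZ, siYAP libraries were lower by −0.77 ± 0.14 (adjusted p = 0.00355).

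**Figure D2:**
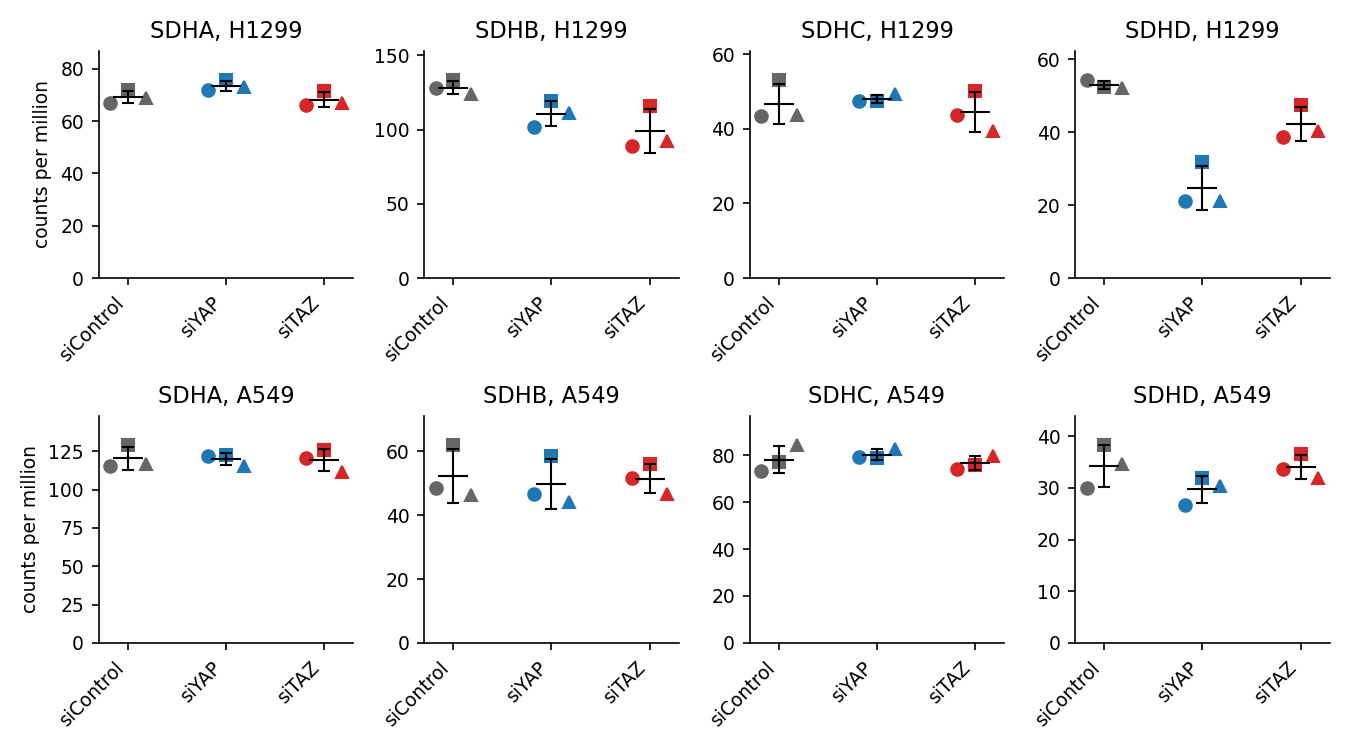
Level of the 4 complex II genes in CPM, H1299 above and A549 below. Circles, squares and triangles are replicates 1, 2 and 3, and black bars give mean and SD. SDHD in H1299 drops from 52.1 to 54.3 in the controls to 21.1 to 31.8 after siYAP, while SDHA and SDHC show no such step.

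No other complex II gene passed this comparison without the block. SDHA, the flavoprotein that oxidises succinate, differed by 0.09 ± 0.08 after siYAP (adjusted p = 0.468) and SDHC, the second membrane anchor, by 0.04 ± 0.10 (0.823). SDHB, the iron-sulfur subunit, differed by −0.21 ± 0.10 (adjusted p = 0.174, and 0.0400 with the block). In A549 SDHD control levels were 30.0, 38.2 and 34.5 CPM, against 26.8, 32.0 and 30.3 after siYAP, groups that overlap; the difference of −0.20 passed with the block alone (adjusted p = 0.0214). The line difference in the siYAP effect on SDHD, H1299 minus A549, was −0.90 (adjusted p = 0.0966 in edgeR), and it passed with the block (−0.91, 0.000204) and in DESeq2 (0.00626).

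SDHD starts at position 112086773 of chromosome 11 on the plus strand (GRCh38, GENCODE) and runs to 112120013. RefSeq places the start further downstream. TIMM8B, a mitochondrial import chaperone gene, lies head to head with SDHD on the other strand. SDHD shares 22.2% of its exonic bases with another gene on the same strand, and the part of this overlap in its counts was not tested. TIMM8B, looked up after the SDHD values were seen, differed by −0.04 after siYAP (adjusted p = 0.854) and fell by 0.48 after siTAZ (0.0198). Ahead of its RefSeq start SDHD carries the 10-base palindrome that nuclear respiratory factor 1 (NRF1) recognises, and a match to the ETS-type motif CCGGAAG 77 bases before the start. The TEAD motif GGAATG was not found in the 300 bases searched.

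The NRF1-type motif was in 24.2% of the nuclear member promoters searched, fewer than the ETS-type CCGGAAG (30.6%). The windows below show the NRF1-type motif for SDHD and for others named here. The motif is in capitals with 10 bases either side (RefSeq, GRCh38.p14, on the strand of the gene).
SDHD, chr11:112086753-112086782, plus strand: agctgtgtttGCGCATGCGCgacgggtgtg
SDHA, chr5:218144-218173, plus strand: ggtccgctttGCGCAGGCGCggcgccccca
UQCRFS1, chr19:29213163-29213192, minus strand: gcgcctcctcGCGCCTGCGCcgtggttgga
NDUFA11, chr19:5903869-5903898, minus strand: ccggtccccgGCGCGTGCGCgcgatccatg
NDUFA3, chr19:54102675-54102704, plus strand: ctgcgcgagtGCGCACGCGCaggctccgaa
The motif was searched on both strands as GCGCA, any base, then GCGC. It begins 110 bases before the start in SDHD, 166 in SDHA, 31 in UQCRFS1, 98 in NDUFA11 and 170 in NDUFA3.

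Promoter windows, from 250 bases before to 50 after a start, were found for 62 of the 78 protein-coding nuclear members, 51 of them under the same symbol. The NRF1-type motif was in 24.2% of the 62, against 6.98% of all 27305 genes with a window and 12.3% of the 11521 that were tested in these cells. Its palindromic form, with T as the free base, was in 6.45%, 1.52% and 2.47%. The ETS-type motifs, which GABPA also binds, gave 30.6%, 12.2% and 20.5% for CCGGAAG, 17.7%, 4.95% and 8.95% for ACTTCCGG, and 9.68%, 4.80% and 8.57% for CGGAAGTG. These motifs overlap in their letters, so that 1 site can count for several. The YY1-type AAGATGGC was in 19.4%, 3.52% and 5.90%, and a longer form, followed at once by GGC, in 6.45%, 1.04% and 2.12%.

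In these windows TEAD-type motifs had lower shares among the members than among all genes, on small counts. GGAATG was in 6 of 62 member promoters (9.68%), 16.7% of all and 15.1% of the tested genes. CATTCCA was in 1 of 62 (1.61%), 5.10% and 3.96%, and ACATTCCA in 0 of 62, 1.42% and 1.08%. Sites outside the windows were not searched. The general promoter motifs GGGCGG (62.9%, 48.3% and 75.2%), CCAAT (35.5%, 39.7% and 42.6%) and TATAAA (9.68%, 13.99% and 8.65%) complete the 13 searched. All 13 were read on both strands, and a match describes the letters, not binding.

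Of the mitochondrial genes, MT-ND3, a membrane subunit of complex I, passed the test after siYAP in H1299. Control levels were 2042, 1843 and 2151 CPM, against 2878, 2717 and 2711 after siYAP, with no overlap. It rose by 0.46 ± 0.12 on the log2 scale (edgeR adjusted p = 0.0235). All 13 mitochondrial genes had fitted differences above 0 (0.11 to 0.46, median 0.25), 6 of them in all 3 numbered pairs; over all genes 27.5% were higher in all 3 pairs. The 12 genes on 1 strand share long transcripts (MT-ND6 is on the other strand), so the genes are not independent. The MT-ND3 call was lost without replicate 1 (adjusted p = 0.252) or replicate 3 (0.1704), and also when any of 4 single libraries was left out (siControl 1, siControl 2, siYAP 1 or siYAP 3; adjusted p 0.0622 to 0.0964). With the replicate block, MT-CYB (0.38, adjusted p = 0.0310), MT-ND1 (0.40, 0.0170) and MT-ND2 (0.41, 0.0150) passed as well. MT-CYB, the cytochrome b of complex III, is an example of the wide controls, with 8104, 6916 and 10585 CPM against 10963, 10763 and 10910 after siYAP.

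SDHD and MT-ND3 were the 2 members called after siYAP among 91 tested, 2.20% of them, while 16.6% of all tested genes were called. With the block 11 were called, 6 higher and 5 lower, against 28.3% of all genes. The nuclear subunits had a median of 0.01, the same as all genes (0.01). Those that passed with the block beside SDHD were lower for UQCRFS1, the Rieske iron-sulfur protein of complex III (−0.25, adjusted p = 0.0297), NDUFS6 (−0.23, 0.0363), SDHB and COX7A2 (−0.20, 0.0410). NDUFA3, an accessory subunit of complex I (0.27, 0.0494), and ATP5F1, of the stalk of complex V (0.21, 0.0489), were higher.

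**Figure D3:**
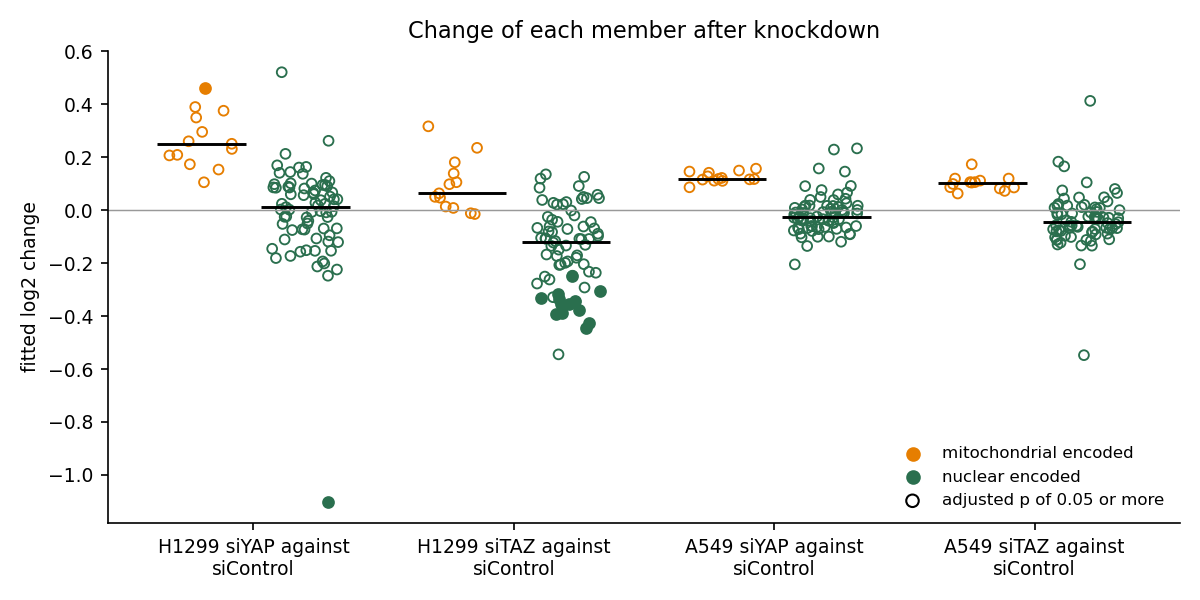
Fitted log2 change of each mitochondrial (orange) and nuclear (green) subunit gene after each knockdown. Filled points passed an adjusted p of 0.05 and black lines are medians. Mitochondrial genes lie above 0 in all but 2 cases, the low filled point at −1.10 is SDHD, and 13 filled nuclear points lie below 0 after H1299 siTAZ.

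After siTAZ in H1299 the change was of another kind: a small drop of nuclear subunit genes in complexes I to V, with no mitochondrial gene called. Of 74 nuclear subunits tested, 13 fell and none rose, with changes of −0.25 to −0.44. Together with the pseudogene UQCRFS1P1 (−0.53) these were 14 of 91 members, 15.4%, all lower. Over all genes 23.3% were called and 12.4% were called lower, so the members' share in the lower direction was close to that of genes at large. The shift of the whole group was plainer than the calls: the median was −0.12, 59 of 74 lay below 0, and 45 of 74 (60.8%) were lower in all 3 numbered pairs, compared with 32.7% of all genes. The median of all genes was 0.01. Fitted differences of the 13 mitochondrial genes ran from −0.01 to 0.32 (median 0.06), and 3 of them (23.1%) were higher in all 3 pairs, compared with 32.1% of all genes. These pair counts were made after the values were seen.

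The calls covered 2 of 36 nuclear subunits of complex I, 1 of 4 of complex II, 3 of 8 of complex III, 3 of 11 of complex IV and 4 of 15 of complex V. NDUFA6, an accessory subunit of complex I, had control levels of 76.4, 76.2 and 72.8 CPM, and 51.2, 61.2 and 53.3 after siTAZ (−0.44 ± 0.09, adjusted p = 0.00477). NDUFS3, a core subunit of the arm of complex I that takes electrons from NADH, stood at 104.3, 104.1 and 102.3 and at 74.2, 82.5 and 74.3 (−0.43 ± 0.09, adjusted p = 0.00533). Neither gene's groups overlapped, and in both the siTAZ library of replicate 2 lay nearest to the controls.

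UQCRFS1 had control levels of 158.2, 160.0 and 163.1 CPM, and 112.5, 143.4 and 111.0 after siTAZ (−0.39 ± 0.10, adjusted p = 0.0119). COX8A, a small subunit of complex IV, stood at 106.7, 102.4 and 103.6 and at 75.6, 87.2 and 76.1 (−0.39 ± 0.08, adjusted p = 0.00576). SDHB stood at 127.7, 133.1 and 124.0 and at 88.7, 115.8 and 91.9 (−0.38 ± 0.10, adjusted p = 0.0187). Replicate 2, the library with the weaker TAZ knockdown, again lay between the other siTAZ libraries and the controls.

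The rest of the called subunits were UQCR10 and UQCRQ of complex III, COX5A and COX7A2 of complex IV, and ATP5B, ATP5D, ATP5G1 and ATP5G3 of complex V. ATP5B fell by 0.36 (adjusted p = 0.0261), ATP5D, the delta subunit of the central stalk, by 0.34 (0.0391), and the c-ring genes ATP5G1 and ATP5G3 by 0.35 (0.0196) and 0.31 (0.0176). The lowest fitted value of a nuclear subunit, −0.54 for NDUFV2, had a standard error of 0.28 and passed no test; 82.9% of its exonic bases overlap another gene. With the replicate block 27 members were called, 26 lower and MT-ND1 higher (0.32, adjusted p = 0.0397), against 35.5% of all genes called and 18.9% called lower.

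The number of calls rested on replicates 1 and 3. Without replicate 2 it was 24 of 91, and without replicate 1 or replicate 3 it was 0. Calls over all genes moved the same way, from 3680 to 5267 without replicate 2, to 719 without replicate 1 and to 144 without replicate 3. The fitted values held their size: NDUFA6 was −0.38, −0.51 and −0.44 and NDUFS3 −0.40, −0.47 and −0.41 without replicates 1, 2 and 3.

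When siYAP and siTAZ libraries of H1299 were compared directly, few members passed. Of 91 members 8 were called higher and 1, SDHD, lower, 9.89% against 11.7% of all genes (5.6% higher). The nuclear median was 0.14, with 63 of 74 subunits above 0, as were 51.8% of all genes. In the c ring of complex V, ATP5G1 stood at 110.1, 110.5 and 120.1 CPM after siYAP and at 81.0, 84.9 and 85.3 after siTAZ (0.44 ± 0.10, adjusted p = 0.0112), and ATP5G3 at 142.6, 142.7 and 158.7 and at 106.5, 120.9 and 107.2 (0.41 ± 0.08, 0.00667). Neither gene's groups overlapped. ATP5G2, the other c-ring gene, differed by 0.20 ± 0.11 (adjusted p = 0.247, and 0.0486 with the block), with groups that overlap. NDUFS3 (0.40, adjusted p = 0.0116) and NDUFA8, an accessory subunit of complex I (0.34, 0.0310), were also higher, while ATP5D (0.35) passed with the block alone (0.0596 without, 0.00673 with). With the block the count was 21, 20 higher and 1 lower, against 21.5% of all genes (11% higher).

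In A549 no member passed the test without the replicate block, after either knockdown or between them. Hardly any gene did in that fit: 0.00625% of all tested genes were called after siYAP, 0.00625% after siTAZ and 0.0125% between the knockdowns. By edgeR's unadjusted p under 0.05 there were 0, 1 and 0 members, against 2.56%, 4.38% and 3.49% of all genes, and DESeq2 called 0 in each, where it called 0.0197%, 0.302% and 0.115% of all genes. All 13 mitochondrial genes had fitted differences above 0 after siYAP (0.09 to 0.16, median 0.12) and after siTAZ (0.06 to 0.17, median 0.10). They were higher in all 3 numbered pairs for 11 and 12 of 13, compared with 18.6% and 22.1% of all genes. Most of these genes share long transcripts and both knockdowns share their controls, so neither the genes nor the counts are independent. The nuclear medians were −0.02 and −0.04.

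With the replicate block 3 A549 members passed after each knockdown, against 5.68% of all genes for siYAP and 13.3% for siTAZ. After siYAP these were MT-ND5 (0.14, adjusted p = 0.0471) and MT-ND6 (0.15, 0.0416), both higher, and SDHD. After siTAZ they were MT-ND6 (0.16, 0.0123), higher, and NDUFB3, an accessory subunit of complex I (−0.19, 0.0139), and ATP5B (−0.13, 0.0158), lower. Between the knockdowns NDUFB3 was higher (0.20, 0.0141) and SDHD lower (−0.19, 0.0324) after siYAP than after siTAZ, the 2 calls there with the block, against 7.03% of all genes.

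Whether the lines responded differently was tested as the difference of the 2 effects, H1299 minus A549. Without the block no member passed in edgeR for either knockdown, where 0.0822% and 0.379% of all genes did. Unadjusted p was under 0.05 for 1 member (siYAP) and 8 members (siTAZ) of 90, where it was for 10.8% and 15% of all genes, and DESeq2 called 1 and 0, against 0.922% and 2.29% of all genes. With the block SDHD and MT-ND3 passed for siYAP, against 10.8% of all genes. For siTAZ 14 nuclear subunits passed, all with negative differences, against 17.7% of all genes called and 10.4% called with negative differences. NDUFA6 showed the largest of these differences (−0.41, adjusted p = 0.00571).

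Between the control libraries the lines differed in most members, as in most genes: 70 of 90 tested members were called, 77.8%, against 74.7% of all genes. With the block 73 were called, against 75.3%. The mitochondrial genes were lower in H1299. MT-ND1 stood at 3476, 2620 and 4064 CPM in H1299 and at 8353, 7802 and 9613 in A549 when both lines were scaled together, a difference of −1.34 ± 0.19 (adjusted p = 4.6e-06). MT-CO1 (−0.997), MT-ATP6 (−0.90), MT-ATP8 (−0.87), MT-CO3 (−0.84), MT-CO2 (−0.74), MT-ND4L (−0.72), MT-ND4 (−0.61) and MT-ND2 (−0.59) were also lower, 9 called in all. MT-ND5 (−0.37), MT-ND6 (−0.37), MT-ND3 (−0.13) and MT-CYB (0.08) did not pass, although MT-ND6 did with the block (adjusted p = 0.0471). MT-CYB had 7439, 6337 and 9677 CPM in H1299 and 7431, 7025 and 7694 in A549. The ratio of mitochondrial to nuclear member reads in H1299 controls was 0.612 of that in A549 (log2 difference −0.71, pooled SD 0.24).

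Other reads from the mitochondrial chromosome and its nuclear copies also differed between the lines. The ribosomal RNA genes took 1.088% to 1.43% of H1299 reads and 4.64% to 5.68% of A549 reads, and MT-RNR2 differed by −2.43 (adjusted p = 1.2e-10). MTATP6P1, a nuclear copy almost identical to part of the mitochondrial genome, had 21.96% to 23.6% of the MT-ATP6 count in A549 libraries but 0.175% to 0.21% in H1299. MTND2P28 had 5.97% to 6.25% of the MT-ND2 count in A549 and 0.103% to 0.162% in H1299, while MTCO1P12 went the other way, with 0.0894% to 0.111% of MT-CO1 in A549 and 0.559% to 0.681% in H1299. Reads of such copies cannot be fully told from those of the mitochondrial genes, and their part in the differences between the lines was not tested.

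**Figure D4:**
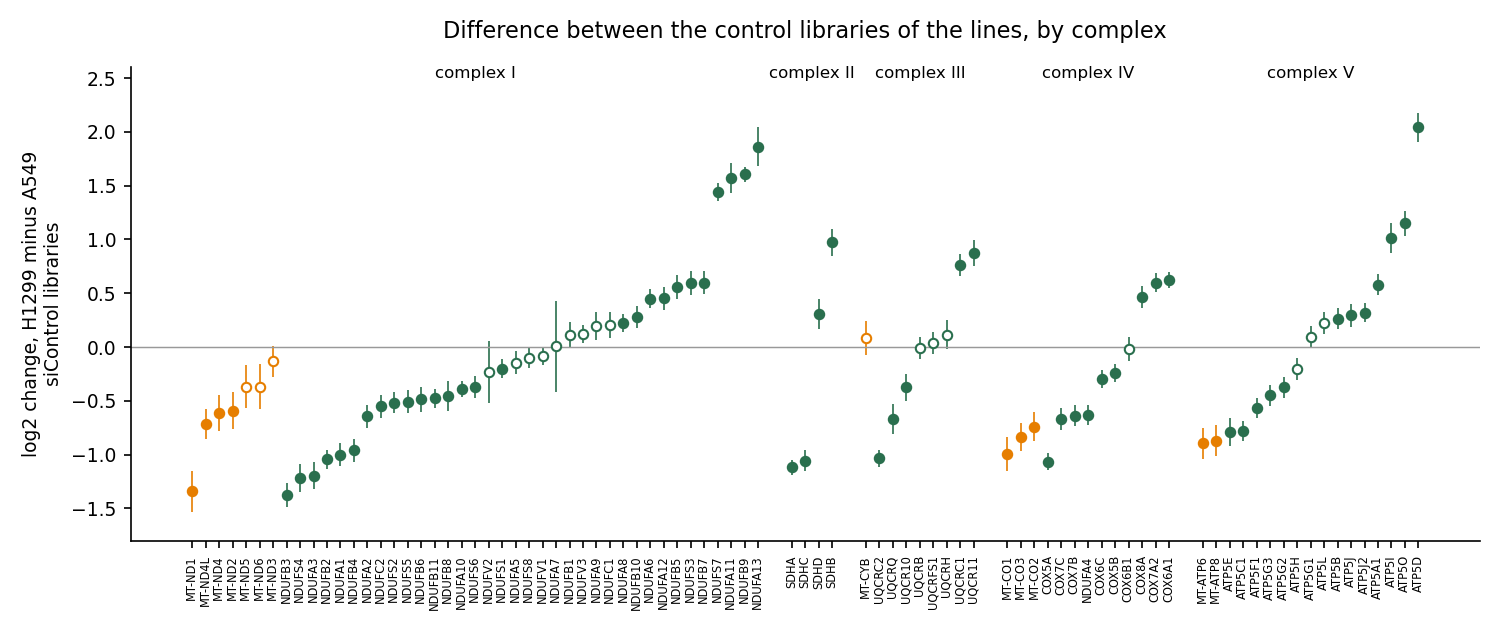
Log2 difference between H1299 and A549 siControl libraries for every tested subunit gene, by complex, with mitochondrial genes in orange and nuclear genes in green; bars are standard errors and filled points passed an adjusted p of 0.05. The orange points lie below 0 except MT-CYB, and the green points run from −1.38 (NDUFB3) to 2.04 (ATP5D).

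Nuclear subunits were split in direction, 25 higher and 32 lower in H1299 of 73 tested, with a median of −0.09, while 37.7% of all genes were higher and 37% lower. ATP5D had 144.0, 153.3 and 146.6 CPM in H1299 controls against 30.7, 37.9 and 39.1 in A549 (2.04 ± 0.13, adjusted p = 1.3e-10). NDUFA13, NDUFB9, NDUFA11 and NDUFS7, all of complex I, followed with 1.86, 1.61, 1.57 and 1.44. NDUFA13 shares 44.1% of its exonic bases with another gene on the same strand, and NDUFA11 shares more. The 11 nuclear subunit genes with more than 30% of such overlap had medians of 32.0 CPM per kb in H1299 and 11.5 in A549. For genes with no overlap the medians were 77.9 and 68.4. The part of overlap in the line differences was not tested. Lowest in H1299 were NDUFB3, with 16.4, 16.8 and 18.0 CPM against 43.9, 46.3 and 42.5 (−1.38 ± 0.11, adjusted p = 2.5e-09), NDUFS4 (−1.22), NDUFA3 (−1.20), SDHA (−1.12) and COX5A (−1.07). Within complex II SDHA and SDHC (−1.06) were lower in H1299 and SDHB (0.97) was higher; SDHD (0.31) lay at the threshold (adjusted p = 0.05). COX6A1 (0.63), COX7A2 (0.60) and COX8A (0.46) were higher in H1299, COX7B (−0.64) was lower, and COX6B1 (−0.02, adjusted p = 0.905) did not pass.

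Many of the nuclear members that differed between the lines lie among genes that differed in the same direction. For each of 73 subunits the median difference of the other tested genes within 5 Mb was taken; it had the same sign as the member's own in 58 (79.5%), compared with 68.1% for 12754 other protein-coding genes. Across members Pearson's r was 0.69 and Spearman's rho 0.69, and r was 0.31 across the other genes. Points that lie close together share neighbours, and no p is given. On chromosome 19, 8 of 10 members were above 0, with a median of 0.74, and the 1149 tested genes of that chromosome had 0.57. On chromosome 5 all 6 members lay below 0 (median −0.67, all 716 genes −0.11). ATP5D and NDUFS7, at chr19:1241746-1244826 and chr19:1383527-1395589 (GRCh38), had neighbour medians of 1.16 and 1.147. The window of 5 Mb was chosen after the line differences were seen.

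**Figure D5:**
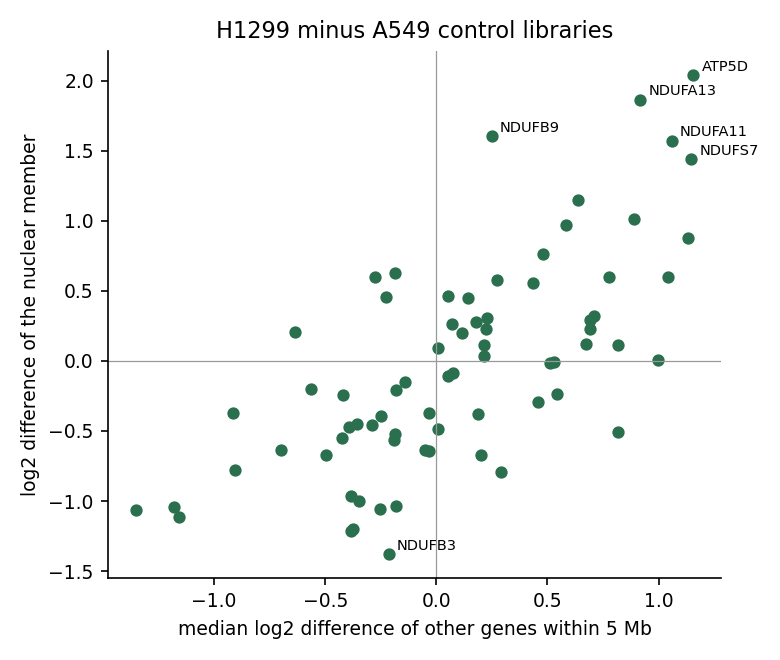
Log2 difference between H1299 and A549 controls for each of 73 nuclear subunit genes (vertical) against the median log2 difference of the other tested genes within 5 Mb (horizontal). Points rise from lower left to upper right (r = 0.69), and 4 of the 5 labelled points at the top are chromosome 19 genes with neighbour medians of 0.92 to 1.16.

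Genes that build or supply the respiratory chain were read from lists made with the design. After siTAZ in H1299 the direction was mostly down. Of 78 mitochondrial ribosomal protein genes tested 20 fell and none rose (35 fell with the block), where 12.4% of all genes fell (18.9% with the block), with MRPS12 at −0.59, MRPL36 at −0.52 and MRPL14 at −0.43. Of 49 assembly factors 14 fell and none rose (15 and 1 with the block), against the same share of all genes: the copper chaperone SCO1 at −0.78, the complex II assembly factor SDHAF3 at −0.72 and the complex IV factor COA4 at −0.64. Their medians were −0.20 and −0.15.

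Against the same 12.4% of all genes (18.9% with the block), 4 of 15 genes of mitochondrial DNA maintenance and transcription fell (8 with the block), among them the helicase TWNK (−0.45), MTERF3 (−0.41) and the nuclease MGME1 (−0.35), beside the transcription factor TFB2M (−0.33). Of 18 genes of mitochondrial RNA processing 4 fell, including TBRG4 (−0.42), the ribonuclease PNPT1 (−0.49), SLIRP (−0.39) and the transfer RNA processing enzyme ELAC2 (−0.33). Of 14 citrate cycle enzymes 5 fell, with MDH2 at −0.41, IDH3A at −0.41 and DLST at −0.29, besides CS and IDH3B. Among 9 respiratory genes that the naming rule leaves out, cytochrome c (CYCS, −0.81), C14orf2 (−0.37) and NDUFAB1 (−0.32) fell, and USMG5 and COX4I1 fell with the block as well.

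Among 10 regulators of mitochondrial biogenesis MYC (−0.96, adjusted p = 0.000334), the nuclear receptor ESRRA (−0.49) and the co-activator PPRC1 (−0.39) fell, and the muscle co-regulator PERM1 rose (0.59, 0.0310). MYC stood out in the test between lines, where its siTAZ difference was −0.88 (adjusted p = 0.0281). Cytosolic ribosomal proteins, a list outside mitochondria, also fell, 21 of 83 with a median of −0.29 (69 with the block, where 1 was higher). None of 11 other mitochondrial chromosome genes and none of 12 nuclear copies was called; with the block the transfer RNA genes MT-TC and MT-TY passed as higher.

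After siYAP in H1299 fewer list genes were called, in both directions, where 7.89% of all genes rose and 8.75% fell (14.7% fell with the block). Of the assembly factors 3 rose and 1 fell, namely UQCC3 (0.48), TIMMDC1 (0.29), FOXRED1 (0.27) and the copper chaperone COX17 (−0.50). NDUFAB1 (−0.62) and CYCS (−0.48) fell, as did the mitochondrial transcription factor TFAM (−0.34). MRPS6 (−0.57), MRPL11 (−0.45), MRPL3 (−0.35) and MRPS15 (−0.36) were the 4 mitochondrial ribosomal protein genes that fell (11 with the block, while MRPS25 and MRPL16 were higher). MYC (−0.49) and GABPA (−0.28) fell and PERM1 (0.61) rose; with the block NRF1 (−0.43, adjusted p = 0.00979) was lower as well. The mRNA nuclease PDE12 (0.26) rose, no citrate cycle enzyme was called (with the block IDH3G was higher, and IDH3A and IDH2 lower), and of the cytosolic ribosomal proteins RPL39L fell (−0.72; 8 with the block). The transfer RNA gene MT-TF fell (−0.61), and with the block MT-TP was higher (0.55, adjusted p = 0.000195). Among the nuclear copies none was called without the block, and MTND2P28 (0.60, adjusted p = 0.0288), MTCO2P12 (0.57, 0.0254) and MTCO1P12 (0.35, 0.0451) were higher with it. These copies moved with MT-ND2 and the other mitochondrial genes, and their part in those differences was not tested.

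In A549 no gene of these lists was called without the block. With it 13 mitochondrial ribosomal protein genes and 37 cytosolic ones fell after siTAZ, of 78 and 84 tested, where 6.13% of all genes fell; the list medians were −0.09 and −0.13. The assembly factors SCO1 (−0.28, adjusted p = 4.1e-05), FOXRED1 (−0.24) and NDUFAF8 (−0.20) fell with the block, as did PNPT1 (−0.28, 9.6e-05), MTERF3 (−0.20), MDH2 (−0.14) and CYCS (−0.16). PPARGC1A, a co-activator of mitochondrial biogenesis, was higher (0.38, 0.0252). After siYAP TFAM (−0.21, adjusted p = 0.0167) and NDUFAB1 (−0.20, 0.00683) were lower with the block, and the ribosomal RNA gene MT-RNR1 was higher (0.16, 0.0222), as it was after siTAZ (0.23, 0.000261). The nuclear copy MTCO2P12 was higher after siYAP with the block (0.86, 0.0129). Genes beyond the 3 with the smallest p of each list were named after their values were seen.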

How the data were processed

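The 18 libraries, 3 in each of 6 groups, were poly(A) RNA of H1299 and A549 cells. The submitters' processing notes list cutadapt, STAR 2.4.2a and DESeq2 with the build GRCh38. How reads were assigned to genes (tool, annotation, strand) is not given in the sources used here. Raw counts by gene symbol, as deposited, entered every test. The deposited tables also hold signal columns (counts divided by a size factor per library) and log2 columns (transformed values, in A549 marked as ComBat output per the file headers, and fold changes). They further hold p-values and adjusted p-values of the authors' comparisons. Deposited log2 changes and calls are quoted only where the authors' deposited table is named.

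Counts were tested with edgeR 4.0.16 in R 4.3.3 (quasi-likelihood test, TMM scaling, filterByExpr by group, Benjamini-Hochberg adjustment over all tested genes, threshold 0.05). Each line was fitted over its 9 libraries, and the lines were compared in a joint fit over 18. The filter kept 91 of 95 members in each line and 90 of 94 in the joint fit; ATP5HP4, COX6B2 and COX7A1 were below it in both lines, ATP5G1P4 in H1299 and in the joint fit, and ATP5F1P5 in A549. Levels are CPM after TMM scaling. Levels per kb use the length of 1 annotated transcript per gene; that choice was changed before levels were read, because some first lengths were implausible; those of SDHC, ATP5S and NDUFA9 stayed long. Symbols were matched to GENCODE by name, 77 members directly and 19 by an older symbol. Depth was 10.7 to 44.98 M assigned reads (M, 1e6 reads), and its precision is part of the fitted errors.

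Libraries of the same number deviated together: the correlation of their deviations from the group means was 0.108 to 0.383 over 9 pairs in H1299 and 0.384 to 0.729 in A549. For unlike numbers this correlation ran from −0.324 to 0.160 in H1299 and from −0.550 to 0.279 in A549, over 18 pairs each. The median was 0.221 for equal and −0.135 for unlike numbers in H1299, and 0.528 and −0.454 in A549. The ranges for equal and unlike numbers overlap in H1299 but not in A549, so these correlations bear out pairing by number less clearly in H1299. The sample descriptions share a prefix within each number (A, B and C in H1299, IQ, IY and IZ in A549) and do not say what it marks. The fit blocked on replicate number is quoted where it changes a call. The labels name no separate cultures, so p-values measure the spread between libraries, which may be technical. On simulated counts the H1299 siYAP comparison (15579 genes) recovered 49% of genes changed 1.5-fold and 87% of genes changed 2-fold, and the A549 siYAP comparison (15818 genes) 18.2% and 59.8%.

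Named were all mitochondrial members, the complex II genes, the tissue isoforms, up to 5 protein-coding nuclear members per direction and contrast by size of change among those called with or without the block, the 5 highest and lowest per kb, and 3 genes per list by p. Members and lists were chosen with earlier results of these data known. DESeq2 1.42.0, other scalings and filters, the block and left-out libraries were tried as alternatives.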

Additional observations from a re-analysis of the deposited data

Results flagged for a closer look

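The effect of a knockdown differed between H1299 and A549 for 16 members in the joint edgeR fit with the replicate number as a block; none of the 16 passed in edgeR without it. They were 2 of 90 members for siYAP, where 10.8% of all genes passed, and 14 of 90 for siTAZ, where 17.7% did (10.4% with negative values). Values are the log2 change in H1299 minus that in A549. A negative value means that the change was lower in H1299, as with a larger fall or a smaller rise.

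For siYAP, SDHD differed by −0.91 (adjusted p = 0.000204) and MT-ND3 by 0.36 (0.0246). For siTAZ, all 14 were nuclear subunits with negative values. In complex I they were NDUFA6 at −0.41, NDUFS7 at −0.35, NDUFS3 at −0.32 and NDUFB9 at −0.21. SDHB of complex II differed by −0.37. In complex III, UQCR10 differed by −0.37, UQCRFS1 by −0.34 and UQCRQ by −0.30. In complex IV, COX8A differed by −0.34, COX5A by −0.31, COX6A1 by −0.25 and COX7B by −0.24. In complex V, ATP5D differed by −0.31 and ATP5G3 by −0.24. Adjusted p ran from 0.00571 (NDUFA6) to 0.0498 (ATP5G3). The groups of 3 libraries are too small for a test of single outlying libraries.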

How the results depend on the processing

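No change of a named member that was called in either of the 2 runs compared took the opposite sign under any alternative run. Counts of called members moved with the replicate block: in H1299 from 2 to 11 (siYAP), 14 to 27 (siTAZ) and 9 to 21 (siYAP against siTAZ), in A549 from 0 to 3, 3 and 2, and for the difference between lines from 0 to 2 (siYAP) and 14 (siTAZ); between the line controls the 70 calls became 73. The 2 alternatives added after the data were seen gave, for DESeq2 with the replicate block, 11, 25 and 20 in H1299, 2 and 1 in A549 for siYAP and siTAZ, and 2 and 9 between lines. The block with library sizes that leave out mitochondrial genes gave 9, 26 and 20 in H1299, 2, 3 and 2 in A549, and 2 and 14 between lines. DESeq2 without the block called 1 member for the line difference in siYAP, and a fit on only the 6 libraries compared called 5 for H1299 siYAP against siTAZ. With single libraries or whole replicates left out, calls ranged from 0 to 5 (H1299 siYAP), 0 to 24 (H1299 siTAZ), 0 to 21 (siYAP against siTAZ), 61 to 68 (line controls) and 0 to 1 (line difference in siYAP), and stayed at 0 for the A549 comparisons and the line difference in siTAZ. The cause was not tested, except that fewer libraries were fitted. The log2 ratio of mitochondrial to nuclear reads ranged from 0.13 to 0.45 and 0.11 to 0.49 in H1299, from 0.08 to 0.29 and 0.08 to 0.24 in A549, and from −0.86 to −0.54 between lines. For single members named in the text, 1974 values kept their side of the threshold, 38 lost the call and 73 gained it. A change of sign in values uncalled in both runs was not counted apart. Changes under about 1.5-fold were often missed at this size and depth, more so in A549.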
